A study of Mus musculus with 2 samples.

Results

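GC-poor peaks at one-direction promoters are stretches of the mouse genome that an antibody to Notch1 pulled down from gamma delta T cells, that lie near the start of a protein-coding gene, and that are built of GC-poor sequence. A member was a nuclear peak that touched the window from 1 kb before to 1 kb after a protein-coding transcription start site of GENCODE release M21, that had all such start sites on 1 strand, and whose own mm10 sequence held less than 55% G and C. The rule gave 635 members among 5910 nuclear peaks (10.7%), out of 5913 peaks in all, of which 3 were mitochondrial. The members made up 54.1% of the 1173 promoter peaks, and the rest were 430 GC-rich peaks at one-direction promoters and 108 peaks at divergent promoters, where start sites lie on both strands. The rule used position and base composition and no score, so scores were read as measurements. GC content was not, and the place of a peak relative to a start site is in part set by the rule, because sequence around many start sites is GC-rich. Which genes have a member is in part set by the rule too, since it asks for GC-poor sequence near a start site.

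The study addressed where intracellular Notch1 (ICN1) sits in the genome of gamma delta T cells, the T cells whose antigen receptor is made of gamma and delta chains. The 1 Notch1 library came from gamma delta T cells of the thymus, taken on postnatal day 0 to 3 from wild type C57BL/6 animals, fixed with 0.5% formaldehyde for 5 min and precipitated with the rabbit monoclonal antibody D1E11. An input library of the same cells, without antibody, was not analysed here, so no peak was set against input. There was no replicate, knockout or second condition, so every statement below compares peaks within 1 list, and the read depth behind the peaks is unknown. A peak list holds no expression values, so the cell type label could not be checked against expressed markers.

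Notch1 is a transmembrane receptor that is cleaved when a neighbouring cell presents a ligand, and the freed intracellular part moves to the nucleus. There it does not bind DNA on its own but joins RBPJ, a DNA-binding protein that recognises a short motif with the core TGGGAA, and a Mastermind co-activator. In thymocytes Notch signalling is required for T lineage commitment and has been tied to the choice between gamma delta T cell subsets. Promoters of mammals fall into CpG-island promoters, which are GC-rich, often active in many tissues and start transcription at many positions, and CpG-poor promoters, which are more often tissue-restricted and more often carry a TATA box.

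Sequences of 120 bases show what the members look like and where the RBPJ core stands in them. Each is mm10 sequence in 5′ to 3′ direction on the strand of the nearest gene, in lower case, with capitals for a match, on either strand, to one of the transcription factor motifs spelled out further down, so that TTCCCA is the core read on the other strand. Set out first are 5 members with an RBPJ core among those with the highest scores of their group, Blk (chr14:63377406-63377525, minus strand), Zfp69 (chr4:120952200-120952319, minus strand), Pag1 (chr3:9705753-9705872, minus strand), Fam71b (chr11:46397247-46397366, plus strand) and Dusp1 (chr17:26509048-26509167, minus strand).
Blk: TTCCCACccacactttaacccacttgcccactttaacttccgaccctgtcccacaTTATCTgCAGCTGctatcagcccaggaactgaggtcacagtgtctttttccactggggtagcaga
Zfp69: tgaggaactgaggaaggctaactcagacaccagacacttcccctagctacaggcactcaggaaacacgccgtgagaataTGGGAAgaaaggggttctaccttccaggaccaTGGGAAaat
Pag1: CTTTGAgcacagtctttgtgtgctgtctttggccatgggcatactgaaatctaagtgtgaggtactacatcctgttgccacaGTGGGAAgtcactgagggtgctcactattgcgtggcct
Fam71b: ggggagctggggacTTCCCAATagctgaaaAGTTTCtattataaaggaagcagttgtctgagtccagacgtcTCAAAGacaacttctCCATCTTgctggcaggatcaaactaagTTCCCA
Dusp1: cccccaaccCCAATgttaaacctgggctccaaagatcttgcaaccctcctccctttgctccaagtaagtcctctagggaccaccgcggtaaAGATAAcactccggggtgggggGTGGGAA
Blk, Pag1 and Dusp1 held the longer form GTGGGAA, and Zfp69 and Fam71b held 2 cores each within the 120 bases. The next 2 show strong members in which no core was found anywhere in the peak, Selplg (chr5:113832660-113832779, minus strand) and Srgn (chr10:62506447-62506566, minus strand).
Selplg: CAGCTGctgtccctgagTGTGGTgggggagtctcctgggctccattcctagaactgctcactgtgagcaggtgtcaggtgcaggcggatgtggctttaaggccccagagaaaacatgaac
Srgn: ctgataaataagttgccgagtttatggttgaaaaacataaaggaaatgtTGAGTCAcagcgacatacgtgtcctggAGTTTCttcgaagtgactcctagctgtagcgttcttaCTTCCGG
In Selplg the capitals mark an E-box (CAGCTG) and a RUNX match, and in Srgn an AP-1, an interferon response and an ETS match. The last 2 were chosen after the values were seen, Il2ra (chr2:11643086-11643205, plus strand) because it is the member at a textbook Notch target with most cores, and Mbnl1 (chr3:60473640-60473759, plus strand) because it is the peak of lowest GC content.
Il2ra: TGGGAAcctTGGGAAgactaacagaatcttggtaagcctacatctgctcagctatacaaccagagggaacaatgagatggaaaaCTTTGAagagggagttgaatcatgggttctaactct
Mbnl1: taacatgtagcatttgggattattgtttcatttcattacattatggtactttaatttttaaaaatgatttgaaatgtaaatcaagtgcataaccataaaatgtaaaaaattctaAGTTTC
The Il2ra stretch carried a pair of cores 3 bases apart, and the Mbnl1 stretch was 22.5% GC.

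Most members did not sit on the start site that made them promoter peaks, and these distances describe the classes without a test. The centre lay at a median of 549 bp from the nearest start site, against 130 bp in GC-rich one-direction peaks. Of the members, 148 (23.3%) had their centre within 250 bp of the start site and 354 (55.7%) had it over 500 bp away, against 300 (69.8%) and 50 (11.6%) of the GC-rich peaks. Members were spread almost evenly over the window, from 53 to 80 peaks in each 250 bp step between 1000 bp upstream and the start site and from 50 to 73 in each step between the start site and 1000 bp downstream. GC-rich peaks were gathered at the start site, with 153 in the 250 bp upstream and 147 in the 250 bp downstream of it.

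**Figure D1:**
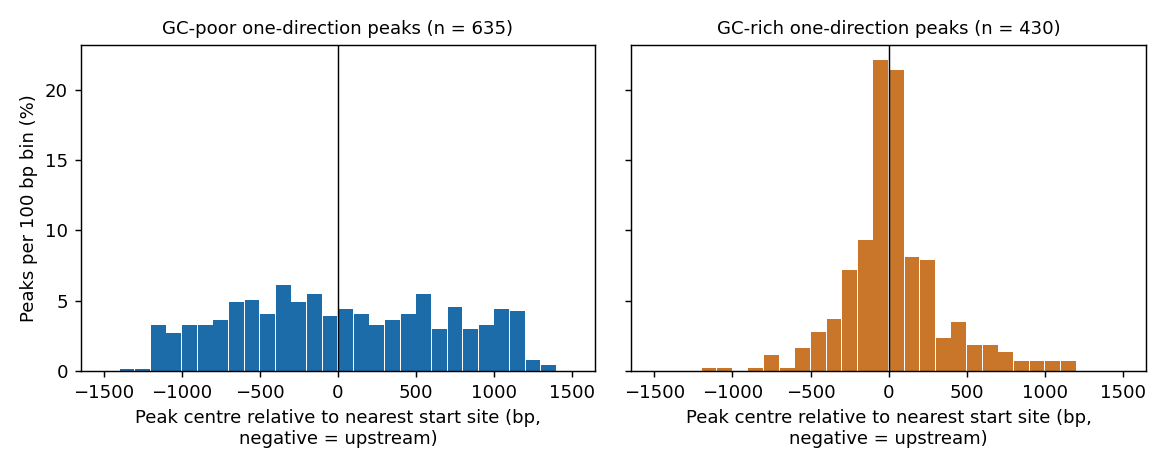
Distribution of the distance between peak centre and nearest protein-coding start site in bins of 100 bp, as a percentage of the class, for 635 GC-poor (left) and 430 GC-rich (right) one-direction promoter peaks; negative values lie upstream. GC-poor peaks are spread over the window and GC-rich peaks are gathered at the start site, with median absolute distances of 549 bp and 130 bp.

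A peak covered a start site in 120 of 635 members (18.9%) and in 260 of 430 GC-rich peaks (60.5%), a difference of -41.6 percentage points. This measure is tied to the rule, since a peak on top of a GC-rich start site can hardly pass the limit of 55%, so the difference is given as a description. At start sites under 55% GC the shares were 26.8% of 321 members and 38.7% of only 31 GC-rich peaks (odds ratio 0.579). At start sites of at least 55% GC, where the limit bears most on it, the shares were 10.8% and 62.2% (odds ratio 0.0739). The sequence of the start site was therefore looked at on its own. The 200 bp centred on the nearest start site were at least 55% GC for 314 members (49.4%, Wilson 95% interval 45.6 to 53.3) and for 399 GC-rich peaks (92.8%), against 57.0% of all 93462 protein-coding start sites. Intervals of shares here cover counting error only.

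For description the members were cut by the GC content of the start site at 55%, close to its median of 54.5%. Where the peak lies is then in part set by the rule, since a member can hardly cover a GC-rich start site. At the 314 GC-rich start sites, 34 members (10.8%) covered the start site, the median distance of the centre was 617.5 bp, and 64 (20.4%) were at an internal start, one lying more than 1 kb inside the gene's outermost start. At the 321 GC-poor start sites, 86 members (26.8%) covered the start site, the median distance was 482 bp, and 203 (63.2%) were at an internal start. Members at GC-rich start sites thus lay mostly beside the start site. Those at GC-poor start sites lay mostly near internal starts when all annotated transcripts were counted. This depends on the transcripts used. Of all members, 58.0% lay at an outermost start with all transcripts. The share was 75.2% of 483 with protein-coding transcripts only and 82.8% of 429 with transcripts tagged as basic. No share for all GC-poor start sites was set beside these. Of the 314, 29 (9.24%) lay at a gene that also had a GC-rich one-direction peak, and of the 321, 15 (4.67%) did.

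**Figure D2:**
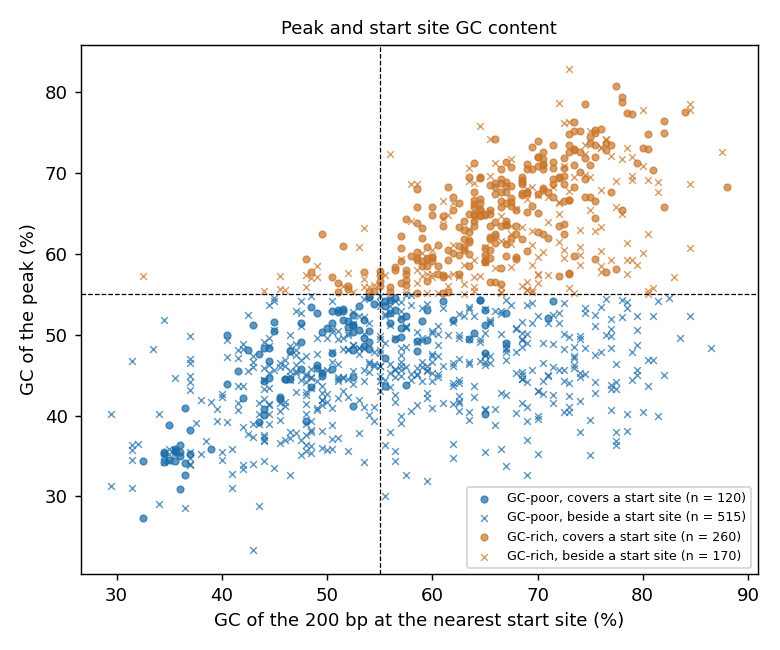
GC content of the peak (vertical, percent) against GC content of the 200 bp at its nearest start site (horizontal, percent) for 635 GC-poor and 430 GC-rich one-direction peaks; circles cover a start site, crosses lie beside one, and dashed lines mark 55%. The 314 GC-poor peaks right of the vertical line lie mostly beside their GC-rich start site, while the 399 GC-rich peaks there mostly cover it. This is in part set by the rule.

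The nearest start site was the gene's outermost one, within 1 kb, for 368 members (58.0%) and for 337 GC-rich peaks (78.4%), a difference of -20.4 points (95% interval -25.7 to -14.8, odds ratio 0.380, Fisher's exact test, two-sided, adjusted p = 9.30e-12 over 9 tests). The rule in part sets this difference, since 49.4% of members and 92.8% of GC-rich peaks were at start sites of at least 55% GC. Among start sites of like composition the test was not passed. At start sites of at least 55% GC the shares were 79.6% and 81.2% and the odds ratio was 0.904 (exact adjusted p = 0.714). At those under 55% they were 36.8% and 41.9% and the odds ratio was 0.805 (exact adjusted p = 0.710), with 31 GC-rich peaks in the second set. Members and GC-rich peaks had their centre upstream of the start site in 51.2% and 48.8%, which did not pass the test (difference 2.34 points, 95% interval -3.76 to 8.43, exact adjusted p = 0.511). The nearest start site belonged to a protein-coding transcript, rather than a non-coding transcript of the same gene, in 65.4% of members and 68.6% of GC-rich peaks (difference -3.25 points, 95% interval -8.91 to 2.54, exact adjusted p = 0.434). At start sites of at least 55% GC these 2 comparisons crossed the threshold, with members more often upstream (58.3% against 49.6%, exact adjusted p = 0.0420) and more often at a protein-coding transcript (78.7% against 70.2%, exact adjusted p = 0.0284). That split was added after the data were seen. Where a member can lie at such start sites is in part set by the rule, so no conclusion is drawn from these 2 differences.

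By annotation of protein-coding genes, the centre of 331 members (52.1%) lay in an intron, of 184 (29.0%) outside such genes, of 42 (6.61%) in an exon of a non-coding transcript, of 41 (6.46%) in a UTR and of 37 (5.83%) in coding sequence. Of the GC-rich peaks, 130 (30.2%) had their centre in an intron and 121 (28.1%) in a UTR. One-direction refers to protein-coding genes: 75 members (11.8%) and 75 GC-rich peaks (17.4%) had the start site of a gene of another type on the opposite strand within 1 kb. The region of 1 kb either side of the start site had a median CpG ratio, observed over expected from its base composition, of 0.440 for members and 0.692 for GC-rich peaks, which follows in part from the rule.

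A TATA box, the element that positions the transcription machinery at many tissue-restricted promoters, was sought as TATAAA on the gene's strand with its bases 21 to 40 bp upstream of the nearest start site. It was found at 16 members (2.52%, 95% interval 1.56 to 4.05) and at 7 GC-rich peaks (1.63%, 0.791 to 3.32). Among members at GC-poor start sites it was found at 11 of 321 (3.43%, 1.92 to 6.03), beside 1.73% of the 38782 GC-poor one-direction start sites of the genome. The letters were absent from this window at most members, at GC-rich and at GC-poor start sites.

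A group of members lay on DNA that the genome holds in many copies, which has to be known before scores are read. At least 50% of the bases were soft-masked as repeats in 61 members (9.61%) and in 1 GC-rich peak (0.233%), an odds ratio of 45.6 (difference 9.37 points). The rule has a part in this, since the repeated members described next had a median GC content of 35.2%, so the difference is given as a description. Many of those lie close together and are not independent. Without them and the Sfi1 members below the shares were 5.26% and 0.233% (odds ratio 23.8). Peaks outside promoters had a median of 17.3% soft-masked bases, against 14.6% in members and 5.53% in GC-rich peaks. In 26 members (4.09%) at least 50% of the strings of 32 bases occurred more than once on the assembled chromosomes of mm10. The same held for 0 of 430 GC-rich peaks (95% interval up to 0.885%) and for 16 of 4737 peaks outside promoters (0.338%). Copies within the same peak counted, and copies on unplaced sequence did not. Of these 26, 23 lay within chr9:2999910-3038419, a stretch of 38.5 kb with predicted genes such as Gm10717 and Gm11168, 2 within chr2:98662141-98667399 and 1 at Ido1 on chromosome 8. Their median score was 1703, their strings had a median of 11.5 copies, and 10 of the 11 members at the shared top value of 3100 or above were among them. The other was at Gm21738 on chromosome 14, a peak 4135 bp wide of which 82.8% was soft-masked. Of the 26 members on repeated sequence 16 were at least 500 bp wide, and 12 of these matched themselves best at a shift of 234 bp (median identity 81.3%), the spacing of tandem copies. The mouse major satellite of pericentromeric chromatin is such a tandem repeat.

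A second group of 20 peaks lay at Sfi1, which encodes a centrosome protein, within chr11:3134246-3194464. Together with peaks of other classes this stretch of 60.2 kb held 37 peaks. Here scores were low, with a median of 239 and a maximum of 887, and 19 of 20 were under the median of the whole list, although the peaks were wide, with a median of 991 bp. Of the 13 members with a score under 250, 11 were at Sfi1. Of their strings of 32 bases, a median of 13.97% and at most 25.5% occurred more than once on the assembled chromosomes of mm10. Where a read came from is uncertain for sequence held in several copies, and how such reads were treated is not given in the sources used here. The part that repeated sequence has in the scores was not tested. No comparison of these stretches with input was made here.

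The score is the authors' own number for each peak, and neither header nor label says how it was computed. It was used only to rank peaks within the list. Members had a median score of 719 (quartiles 639 to 930.4, range 55.4 to 3221), GC-rich peaks a median of 806 (quartiles 685 to 985, range 333 to 3100), and the whole list a median of 718. Peaks outside promoters had a median of 710 and peaks at divergent promoters one of 727. The median of members lay between these, and that of GC-rich peaks above both. A score at or above the list median was held by 321 members (50.6%) and by 285 GC-rich peaks (66.3%), a difference of -15.7 points (95% interval -21.5 to -9.72, odds ratio 0.520, Fisher's exact test, two-sided, adjusted p = 9.61e-07). Without the repeated and Sfi1 members the median of the remaining 589 was 723, and 50.8% of them were at or above the list median (odds ratio 0.525, exact adjusted p = 1.73e-06). At start sites under 55% GC, with 31 GC-rich peaks, the call was lost (47.4% against 64.5%, exact adjusted p = 0.403), and at those of at least 55% it held (53.8% against 66.4%, exact adjusted p = 0.00203). A score in the upper quartile of the list, 904 or above, was held by 26.9% of members and 33.0% of GC-rich peaks (odds ratio 0.747, exact adjusted p = 0.0608), which missed the threshold. It passed without the repeated members (odds ratio 0.681, exact adjusted p = 0.0115) and without the repeated and Sfi1 members (0.712, exact adjusted p = 0.0312), and did not pass without the Sfi1 members alone (0.781, exact adjusted p = 0.134). For width no difference passed the test, with medians of 387 and 384.5 bp and 58.7% of members against 57.9% of GC-rich peaks above the list median (difference 0.833 points, 95% interval -5.16 to 6.87, exact adjusted p = 0.800). Another peak of the list lay within 10 kb of 30.6% of members and 28.4% of GC-rich peaks (difference 2.18 points, 95% interval -3.45 to 7.66, exact adjusted p = 0.511).

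**Figure D3:**
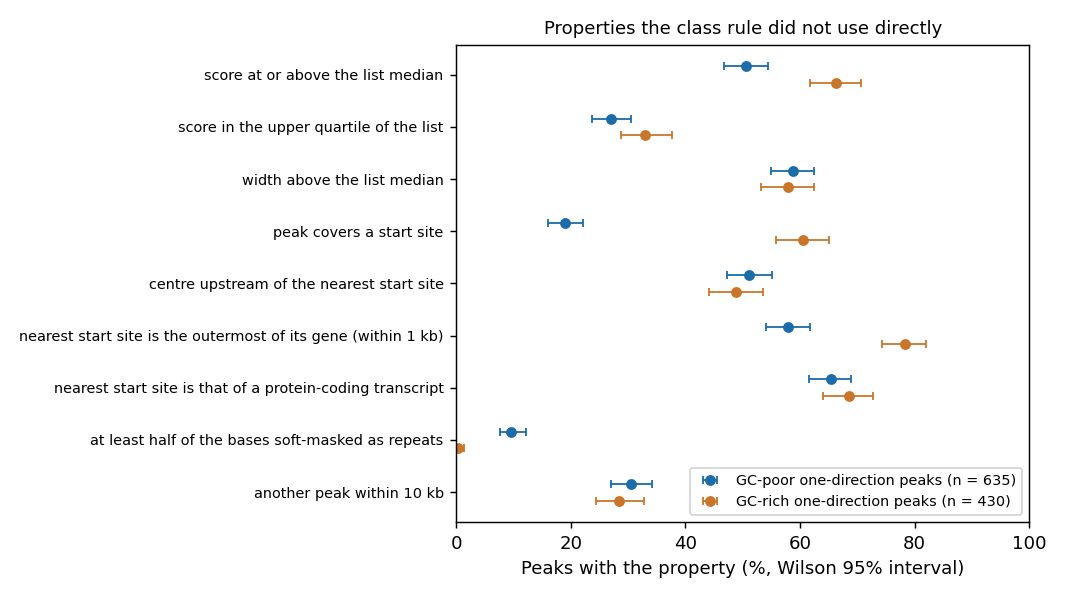
Share of 635 GC-poor and 430 GC-rich one-direction promoter peaks with each of 9 properties (horizontal, percent), points with Wilson 95% intervals that cover counting error only. Covering a start site, lying at an outermost start and repeat content are in part set by the rule. GC-poor peaks are below GC-rich peaks in covering a start site (18.9% against 60.5%), in lying at an outermost start (58.0% against 78.4%) and in scores at or above the list median (50.6% against 66.3%), and above them in repeat sequence (9.61% against 0.233%).

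Within the members the score moved little with GC content. With the members cut by GC content into 4 sets of about equal size, from the lowest to the highest, the median scores were 749, 698, 723 and 726, with 159, 159, 159 and 158 peaks. The lowest set had the highest median only with the repeated and Sfi1 members in it. For the 589 members outside the repeated and Sfi1 stretches the medians of 4 such sets were 716, 718, 723 and 734. Spearman's rho of score and GC content was 0.0419 over the 635 members and 0.117 over the 589 outside the repeated and Sfi1 stretches. These are descriptions across peaks of 1 library that share its depth, with no p. The 314 members at GC-rich start sites had a median score of 739.7 and the 321 at GC-poor start sites one of 707, with 53.8% and 47.4% at or above the list median. Without the repeated and Sfi1 members, 310 and 279 were left, with medians of 744 and 703.

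Peaks on either side of the limit of 55% GC are given without a test. One-direction peaks of 51% to under 53% GC numbered 67, with a median score of 795 and 24 covering a start site. Those of 53% to under 55% GC numbered 54, with a median score of 723 and 18 covering a start site, and those of 55% to under 57% also numbered 54, with a median of 756 and 20 covering one. Just inside the limit stood peaks at Sp1 (54.9% GC, score 694) and Kdm3a (54.9%, 1120.2), and just outside it peaks at Lgals3bp (55.02%, 1069) and Hivep1 (55.1%, 611). At the other end stood Mbnl1, whose sequence is printed above (23.4%, 499), Lrba (27.3%, 879) and Tmprss11g (28.6%, 648).

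**Figure D4:**
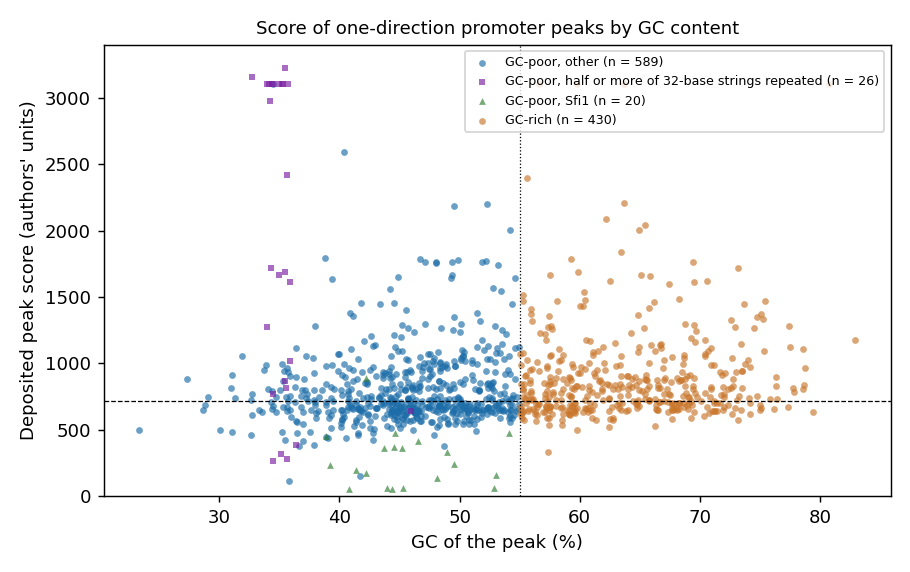
Deposited score (vertical, the authors' units) against GC content (horizontal, percent) for 589 GC-poor members, 26 on repeated sequence, 20 at Sfi1 and 430 GC-rich one-direction peaks; the dashed line is the list median of 718 and the dotted line 55% GC. Repeated members take 10 of the 11 top GC-poor values, at low GC content, with a median of 1703, and Sfi1 members the lowest, with a median of 239.

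Outside repeated, masked and Sfi1 sequence, the highest-scoring members were at genes of several functions, and apart from Rnf125 and Selplg the following were picked after their values were seen. Rnf125, an E3 ubiquitin ligase, had the highest score of them, 2595, with the peak centre 1357 bp downstream of a start site of 72.5% GC. Selplg, which encodes PSGL-1, the ligand by which leukocytes bind selectins, followed with 2199 at a peak that covered its outermost start. Tgif1, a homeodomain repressor of TGF-beta responses, scored 2183 and Uck2, a uridine-cytidine kinase, 2003. Next were Cep44, a centrosomal protein gene, with 1796, and Cnot3, a subunit of the CCR4-NOT complex that shortens mRNA tails, with 1788. Kdm2b, a histone demethylase that binds CpG islands, scored 1759 at a peak centred 813 bp upstream of its start site. Of the 15 highest-scoring members so chosen, 6 covered a start site (Selplg, Cep44, Sh2d2a, Rps14, Shisa5 and Gtf3c6).

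Together the members touched 563 of 21938 protein-coding genes, a background of 2.57%, and GC-rich one-direction peaks touched 408, or 1.86%. Both kinds of peak stood at 40 genes, which were 7.10% of the 563 and 9.80% of the 408. Most of the 563 genes had 1 member, while at 43 there were at least 2, and at 10 at least 3. Besides Sfi1 with 20 and predicted genes of the repeated stretches with 4 to 6, these were Chd2, Cnot6l and Selplg with 4 each and Junb, Kdm2b and Tnfaip3 with 3 each. Peaks at 1 gene share a locus, so they are not independent of each other.

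Gene lists were read against that background of 2.57%, by count and without a test. Of 480 different genes in 15 lists, 38 (7.92%) had a member, through 48 peaks. Of these 48, 11 (22.9%) covered a start site, 25 (52.1%) lay at a start site of at least 55% GC, 25 (52.1%) at an internal start and 30 (62.5%) in an intron. Their median score was 783, and 28 (58.3%) were at or above the list median.

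Of 28 known Notch targets 2 (7.14%) had one, Il2ra and Gata3, and 4 had a GC-rich peak. At Il2ra, which encodes CD25 of the interleukin-2 receptor, the peak at chr2:11642967-11643415 scored 766 and was 43.4% GC, with its centre 342 bp downstream of the start site and 3 RBPJ cores. At Gata3, the zinc finger factor of early T cell development, the peak scored 704 at an intronic start 2250 bp from the outermost one and held 1 core. Of 44 genes of the pathway itself 3 (6.82%) had a member and 0 a GC-rich peak, beside 2.57% and 1.86% of all protein-coding genes. They were Ctbp1, a co-repressor, with 948, Dvl1, a signal transducer of the Wnt pathway, with 673, and Spen, a co-repressor that binds RBPJ, with 667. The cores numbered 0 at Ctbp1 and 1 each at Dvl1 and Spen, and all 3 peaks lay beside their start site.

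Of 34 genes of the interleukin-17 program 6 (17.6%) had a member and 2 a GC-rich peak. Blk, a Src-family kinase required by gamma delta T cells that make interleukin-17, had the highest score of them, 1768, at chr14:63377108-63377582. That peak is centred 927 bp upstream of an internal start that lies 40619 bp from the outermost one. Ikzf3, which encodes Aiolos, had 2 peaks of 891 and 648 around 1 internal start, Ramp1, a part of the receptor for the neuropeptide CGRP, had 862, Lgals3, a galectin, 544 and Il17f itself 532 with 1 core. Of 33 genes of the interferon-gamma program 6 (18.2%) had a member and 5 a GC-rich peak. Tbx21, which encodes T-bet, scored 1215 at a peak 931 bp upstream of a start site of 68.5% GC, outside that start site. Nr4a1, a nuclear receptor induced by antigen receptor signals, scored 1029 and held 2 cores. Il12rb2, Il2rb, Nr4a3 and Tnfrsf9 lay between 607 and 746. Of 33 cytotoxic and NK receptor genes 1 (3.03%) had a member, near the background of 2.57%, and 0 had a GC-rich peak. The 1 gene was Srgn, the proteoglycan core of secretory granules, with 1358 and the centre 1226 bp downstream of an internal start.

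Members at T cell receptor signalling genes were at adaptors and kinases. Of 44 genes 5 had a member and 3 a GC-rich peak. Sh2d2a, the adaptor TSAd, scored 1762 at a peak that covered its start and 588 at a second peak with 2 cores. Pag1, a membrane adaptor that holds the inhibitory kinase Csk, scored 1401 at an internal start 128677 bp from the outermost one. Sit1, a transmembrane adaptor, scored 884 over its start, and Fyn, a Src-family kinase, 686 beside a start site of 69.5% GC.

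Among 39 regulators of the T lineage, Ikzf3, Gata3, Ets1 and Elf1 had a member, against 8 genes with a GC-rich peak. Ets1 scored 535 and Elf1 484, both at internal starts and under the list median. Of 49 cytokine receptor and NF-kB genes 6 had a member and 6 a GC-rich peak. Ifngr1, a chain of the interferon-gamma receptor, scored 988, and Tnfaip3, the NF-kB inhibitor A20, had 3 members of 867, 800.3 and 639. Nfkb1 scored 854, Il2rb 742 and Il2rg, the common gamma chain, 659. With Il2ra, all 3 chains of the high-affinity interleukin-2 receptor had a member. Of 44 homing and adhesion genes 4 had a member and 3 a GC-rich peak. Selplg had 4, of which the peak over the start site scored 2199 and the others 938, 806 and 664. Of the bases of the peaks scoring 938 and 806, 58.8% and 51.6% were soft-masked as repeats. Ccr8, a chemokine receptor, scored 1029 over its start, and Cd69, which holds T cells in tissue, 585 and Dock8 561.

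Immediate early genes had the largest share of GC-rich peaks of the 15 lists. Of 40 such genes 6 had a member, namely Junb, Dusp1, Nr4a1, Klf6, Nr4a3 and Pim1, and 12 had a GC-rich peak. Junb, a subunit of AP-1, had 3 members scoring 1760.2, 995 and 625, all beside a GC-rich start site. Dusp1, a MAP kinase phosphatase, scored 1280.4 at 736 bp upstream of a start site of 66.5% GC, and Klf6, a Kruppel-like factor, scored 966 at 789 bp downstream of one of 65%. Pim1, a survival kinase, was the exception in position, with a score of 581 and a peak over a start site of 47.5% GC. Of 47 interferon-induced genes 2 had a member, Irf2 with 813 and Psmb8, a subunit of the immunoproteasome, with 544.

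Lists of other cell types held few or none. Of 24 alpha beta thymocyte genes 1 had a member, Cd69, and 1 had a GC-rich peak. Of 20 B cell, 24 myeloid and 24 thymic stroma genes, 0 had a member and 0 a GC-rich peak. Lists of this size allow few genes at a background of 2.57%, so a count of 0 here says little. Gene families with no known role in T cells gave a background of their own: 7 of 1134 olfactory receptor genes, 1 of 330 vomeronasal receptor genes and 1 of 110 keratin and keratin-associated genes had a member.

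**Figure D5:**
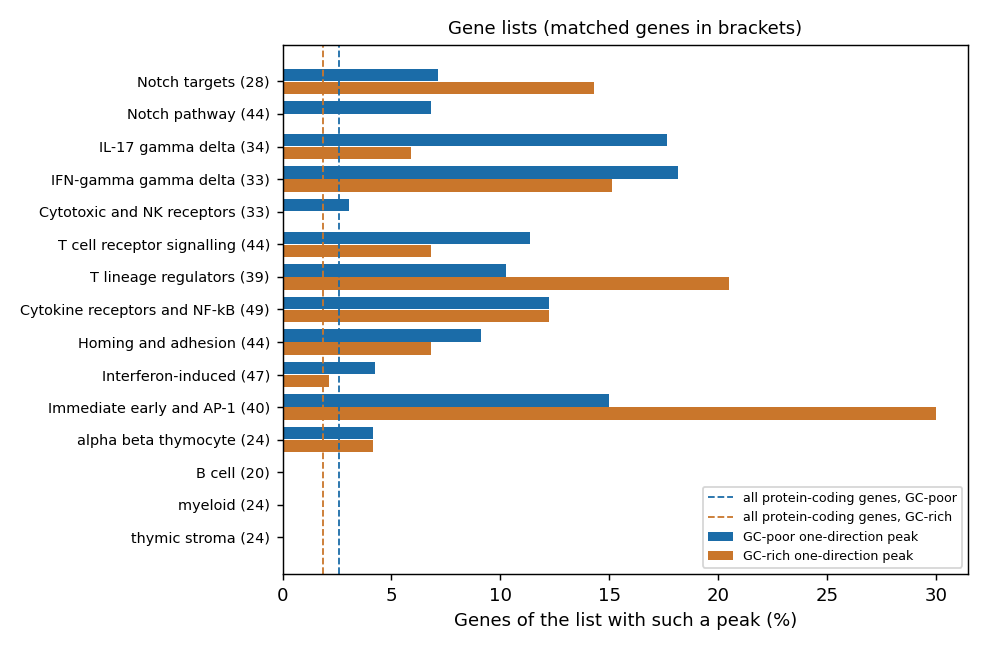
Share of matched genes with a GC-poor (upper bar) or GC-rich (lower bar) one-direction promoter peak in each of 15 gene lists (horizontal, percent), with dashed lines for all protein-coding genes at 2.57% and 1.86%. The interferon-gamma and interleukin-17 lists have 6 of 33 and 6 of 34 genes with a GC-poor peak, immediate early genes have 6 of 40 with a GC-poor and 12 of 40 with a GC-rich peak, and the B cell, myeloid and thymic stroma lists have 0.

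Motifs were counted in the central 200 bp of each member, on both strands, and set beside 200 bp windows of the 38782 GC-poor start sites with start sites on 1 strand and beside peaks outside promoters with under 55% GC. The core of RBPJ, TGGGAA, stood in 124 of 635 members (19.5%, 95% interval 16.6 to 22.8), in 18.9% of the start site windows and in 16.8% of the distal peaks. The longer form GTGGGAA, which contains the core, was present in 3.94%, 4.24% and 4.15%. The core spelled backwards, AAGGGT, counted as a control, was present in 9.13%, 9.07% and 9.34%. Over the whole peak, 220 members (34.6%) held at least 1 core and 61 at least 2. By score, the first 5 of those with at least 2 were at Zfp69 (1449.8), Fnbp1 (1350.3), Neil1 (1321), Fam71b (1291) and Mapkapk3 (1149.6).

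The other motifs were RUNX (TGTGGT), ETS of the promoter type (CCGGAAG) and of the enhancer type (CAGGAAG), zinc fingers of the GATA family (AGATAA) and TCF/LEF (CTTTGA). Next came E-boxes of E proteins (CAGCTG) and of MYC and HES (CACGTG), AP-1 (TGACTCA), CREB and ATF (TGACGT), NF-kB (GGGACTTT), STAT (TTCCNGGAA) and the interferon response (GAAACT). The last were NFY (CCAAT), YY1 (AAGATGG), SP and KLF (GGGCGG), NRF1 (GCGCATGC), ZNF143 (ACTACAAT) and CTCF (CAGGGGGC). Matches could overlap, as those of NFY and the core do in Fam71b. For 19 of the 21 motifs the start site share lay inside the members' 95% interval. It lay above it for the enhancer-type ETS motif, which 6.14% of members and 9.01% of start site windows held, and for NF-kB, which 1 member (0.157%) and 0.982% of windows held. RUNX stood at 15.6% of members, 14.8% of windows and 18.0% of distal peaks, and GATA at 8.82%, 10.9% and 14.4%. A match of letters is a description of the sequence and not a bound site.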

How the data were processed

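The deposited list gives 5913 peaks of 1 Notch1 ChIP library with a position and a score. The score is the authors' own, and how it was computed is not given in the sources used here, nor are the peak caller's settings or whether input served as control. Bowtie 1.0.0, SAMtools 0.1.18 and mm10 are named per the submitters' processing notes. Starts in the list count from 0 and are printed from 1. Sequence came from GRCm38.p6, the assembly of mm10, with its soft-masking, and start sites from all transcripts of protein-coding genes in GENCODE M21.

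Each peak was classed by the start sites whose 1 kb on each side it overlapped by at least 1 bp, by their strands and by its GC content. GC-poor and GC-rich one-direction peaks were compared over 9 properties by Fisher's exact test (scipy 1.17.1), two-sided, with Benjamini-Hochberg adjustment over the 9 and a threshold of 0.05. Differences have Newcombe and shares Wilson 95% intervals. Peaks near each other are not independent, and with 1 library no test speaks of variation between animals. Fisher's test and the motif search were checked on simulated data. Gene lists held 531 entries, of which 527 matched a symbol, and lists and motifs are described by counts alone. Genes were named by score: the 15 highest members, up to 6 genes of each list, and the 5 highest members with 2 or more RBPJ cores; others are said to be chosen after their values were seen. Members and lists were chosen with earlier results of these data known. One item of the gene lists is counted but not reported here by name.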

Additional observations from a re-analysis of the deposited data

How the results depend on the processing

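The choices varied were the window, the GC limit, the transcripts used, the overlap rule, the GC window, the masking and the score; leaving out repeated or Sfi1 peaks and splitting by GC content of the start site were added after the data were seen. Of the tested properties 72 results under the planned and 27 under the added alternatives kept their direction and their side of the threshold. Of values with no test, 8 under the planned and 3 under the added alternatives stayed within 1.5 times the reported count, and the cause of the changes below was not tested. The number of members was 406 with 500 bp windows, 389 among peaks under 20% soft-masked and, by construction, 321 among peaks at or above the list median score. The odds ratio for a score in the upper quartile passed the threshold at 0.670 with 2 kb windows, 0.734 and 0.695 with GC limits of 50% and 60%, 0.727 with GC content of the central 200 bp, 0.646 under 20% soft-masked, 0.681 without repeated peaks and 0.712 without repeated and Sfi1 peaks. The odds ratio for a centre upstream passed at 1.60 with basic transcripts and 1.42 at start sites of at least 55% GC, and fell below 1 at 0.991 with 2 kb windows and 0.967 among peaks at or above the list median score. For width it fell below 1, without passing the threshold, at 0.973 (GC limit 50%), 0.959 (midpoint in the window), 0.988 (under 20% soft-masked), 0.928 (at or above the list median score), 0.993 (without Sfi1 peaks), 0.979 (without both) and 0.865 (start sites of at least 55% GC). For another peak within 10 kb it did so at 0.995 (2 kb windows), 0.980 (under 20% soft-masked), 0.970 (without repeated peaks), 0.996 (without Sfi1 peaks), 0.855 (without both), and 0.872 and 0.898 (start sites under and of at least 55% GC). At start sites under 55% GC, with 31 GC-rich peaks, the odds ratio for a score at or above the list median was 0.495, no longer past the threshold. The same held for an outermost start (0.805). Those for covering a start site (0.579) and for masked sequence (10.4) are descriptions, since the rule in part sets both. For a protein-coding transcript it was 1.17. At start sites of at least 55% GC they were 0.904 for an outermost start, no longer past the threshold, and 1.57, now past it, for a protein-coding transcript. The RBPJ core was in 34.6% of members over the whole peak, against 19.5% in the central 200 bp, where the window is shorter. No paired analysis was possible because there is 1 Notch1 library. Read depth is unknown, so it cannot be said which promoters without a peak were out of reach.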
